A study of Rattus norvegicus with 4 samples.

Results

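The genes of the laminin chains, the nidogens and perlecan were compared between p75High and p75Low populations from olfactory ensheathing cell cultures. Summed intensities of microglia and macrophage markers were 248930 to 415942 in p75Low, against 10712 to 14574 in p75High. Those of ensheathing and Schwann glia markers, Ngfr included, were 5330 to 15576 in p75Low and 35915 to 61752 in p75High. Such sums follow the brightest probes of a list, and the cell type of each population was not tested. The member genes were Lama1, Lama2, Lama4, Lama5, Lamb1, Lamb2, Lamc1, Nid1, Nid2 and Hspg2. A probe was taken when the array file gave it one of these names, with an ending such as _predicted removed. The name match took 16 of the 41012 probes on the array, and these covered 8 of the 10 genes, out of 35637 gene names on the array in all. Lama2 had 4 probes, Lama5 and Nid1 had 3 each, Lamc1 had 2, and Lama1, Lamb1, Lamb2 and Nid2 had 1 each. Lama4 and Hspg2 had no probe under their own names. A further 3 probes were listed under RGD1560062, which the RefSeq table gives as an older symbol of Lama4, and 2 were described in the file as a perlecan fragment. These 5 probes lay outside the name match and are given apart from the 16.

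Olfactory ensheathing cells enclose the axon bundles of the olfactory nerve as glia, and p75 is the low-affinity neurotrophin receptor. Cells grown from male Fischer rats were separated by flow cytometry on p75, and the labels give a purity of 98% for the sorts. Each of the 4 arrays held the p75High sample of a replicate in Cy5 and the p75Low sample of the same replicate in Cy3. Both populations came through the same culture and the same global PCR amplification of cDNA (SuperAmp), the labels name no added agent, and no array had the dyes exchanged. The labels call the replicates biological and paired, but not whether each was a separate animal or culture. The p-values therefore reflect how far these 4 pairs scattered, part of which may be technical.

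Basement membranes are thin sheets of matrix that lie under epithelia and around muscle fibres, fat cells, vessels and Schwann cells. Laminins are secreted as trimers of an α, a β and a γ chain, polymerise on the cell surface and are held there by integrins and dystroglycan. Nidogens bind the laminin γ1 chain and collagen IV, and perlecan, a heparan sulfate proteoglycan encoded by Hspg2, joins the same network and holds growth factors. In peripheral nerve, Schwann cells make laminins with the α2 and α4 chains and need them to sort and wrap axons.

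Each probe was 60 bases long, and several probes of 1 gene read different stretches of its transcript. The results differed between probes of 1 gene, and why they did was not tested. The probes of Lama4, Lama2 and Lama5, which held the smallest p-values, are printed here, in sense orientation. The Lama4 probes started at bases 562, 3259 and 5197 of the transcript, as numbered by the array file.
Lama4 A_44_P187554: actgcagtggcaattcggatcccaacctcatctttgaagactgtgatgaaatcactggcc
Lama4 A_43_P16442: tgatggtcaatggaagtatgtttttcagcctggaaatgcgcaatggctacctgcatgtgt
Lama4 A_43_P17235: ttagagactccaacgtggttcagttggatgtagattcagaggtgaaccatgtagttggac
The Lama2 probes started at bases 5240, 5927, 6698 and 8672.
Lama2 A_43_P21836: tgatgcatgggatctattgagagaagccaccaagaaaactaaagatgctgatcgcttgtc
Lama2 A_43_P20759: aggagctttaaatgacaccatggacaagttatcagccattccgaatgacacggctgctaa
Lama2 A_43_P16021: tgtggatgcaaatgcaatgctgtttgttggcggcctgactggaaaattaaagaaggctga
Lama2 A_43_P21455: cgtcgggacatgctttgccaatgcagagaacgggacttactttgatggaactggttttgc
The Lama5 probes started at bases 8575, 10864 and 11033.
Lama5 A_44_P189469: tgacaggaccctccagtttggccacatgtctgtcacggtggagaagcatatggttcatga
Lama5 A_44_P429455: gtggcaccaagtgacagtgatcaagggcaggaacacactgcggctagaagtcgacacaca
Lama5 A_44_P429453: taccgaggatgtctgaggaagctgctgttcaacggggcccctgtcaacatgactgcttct
Among the 21 probes, 19 had a reading frame without a stop codon, and 10 spanned more than their own 60 bases in the genome. Coordinates are those of the array file, whose header names the rn4 build. Exons and untranslated regions were not analysed here.

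A value below is a log2 ratio of p75High over p75Low, so that 1 is a doubling in p75High, given as mean ± SD over the 4 arrays. An intensity is a normalized spot brightness without a unit, which can be compared between populations for 1 probe but not between probes. Of the 16 probes, 15 passed the filter on dim probes, covering 7 genes. The Nid2 probe did not pass and was not tested. The 5 probes under other names all passed. The median over the 15 tested probes was 1.29, against -0.03 over all 24837 probes tested. Of the 15, 13 had a mean above 0, as did 48.6% of all probes. Among the 13, the Lamc1 probe at base 5903 passed the filter through p75High alone, on 3 arrays against 1 in p75Low. The 13 also held Nid1 A_44_P210385 and A_43_P15947, which overlap and are not separate measurements. The adjusted p of the 15 ran from 0.0575 to 0.858 in limma, so 0 of them passed 0.05 in either direction. Of all probes, 0.656% passed, 0.262% as higher and 0.395% as lower in p75High. At an unadjusted p under 0.05, 3 of the 15 were higher in p75High and 0 were lower, against 5.74% and 6.79% of all probes. The 3 were the Lama2 probe at base 5240 and the Lama5 probes at bases 10864 and 11033, so they are not separate genes. By the brightest probe per gene, 2 of the 7 genes were higher, against 1286 of 22162 genes in all. On all 4 arrays 5 of the 15 had a positive ratio and 1 had a negative one, where 12.5% and 13% of all probes did. Among the 5 were Lamb2 and Nid1 A_44_P210385, whose replicate 4 ratios were only 0.01 and 0.05, the latter with neither population above background. Of the 5 probes listed under other names, 1 was higher past the threshold, a Lama4 probe.

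**Figure D1:**
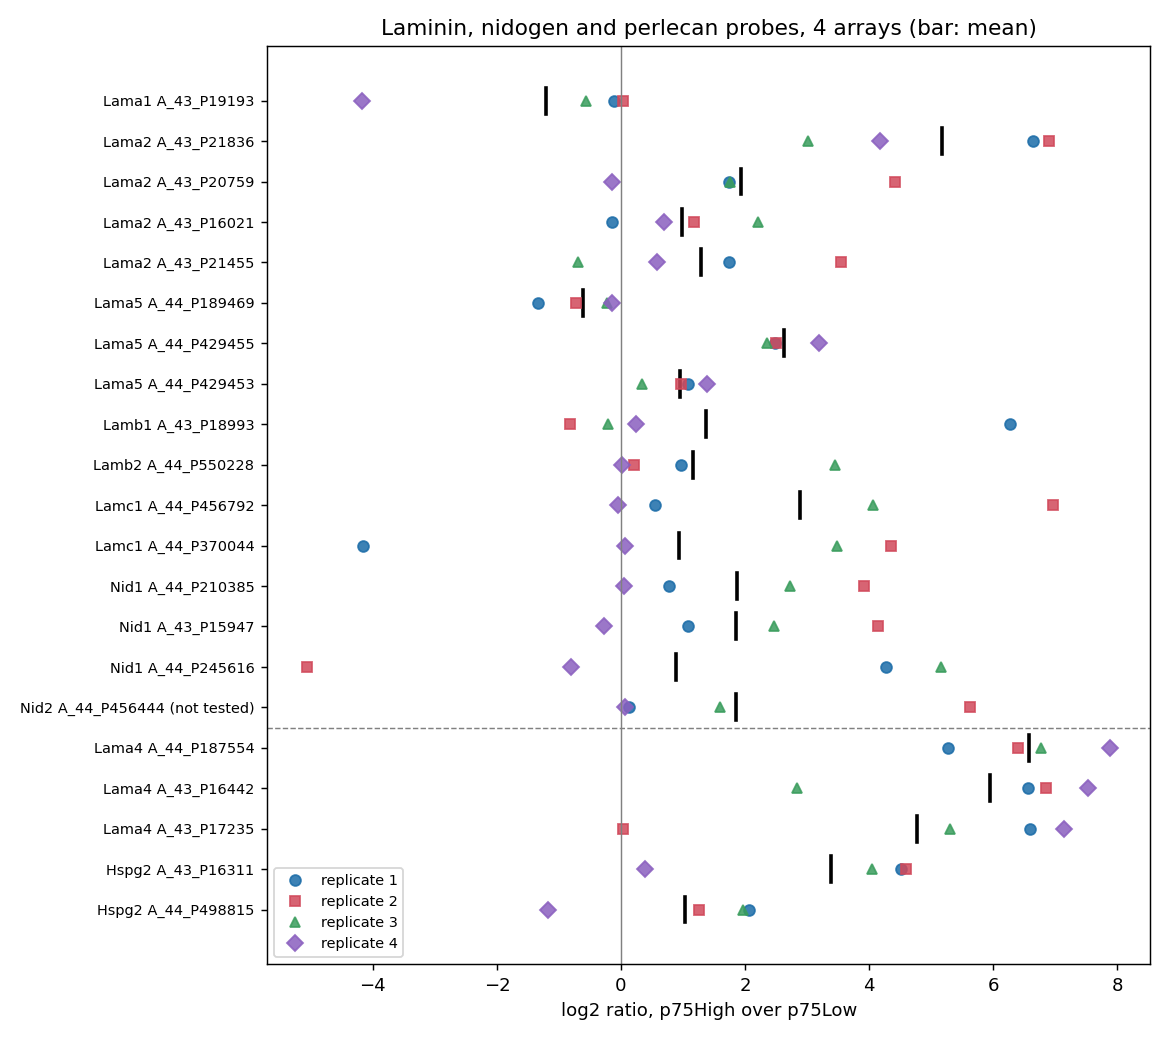
Log2 ratio of p75High over p75Low (x axis) on each of the 4 arrays for every laminin, nidogen and perlecan probe (rows). Symbols mark the replicates, the black bar is the mean, and the 5 probes under the dashed line carry other names in the array file. Most means lie right of 0, from -1.21 for Lama1 to 6.58 for Lama4, and the arrays of 1 Nid1 probe run from -5.06 to 5.15.

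**Figure D2:**
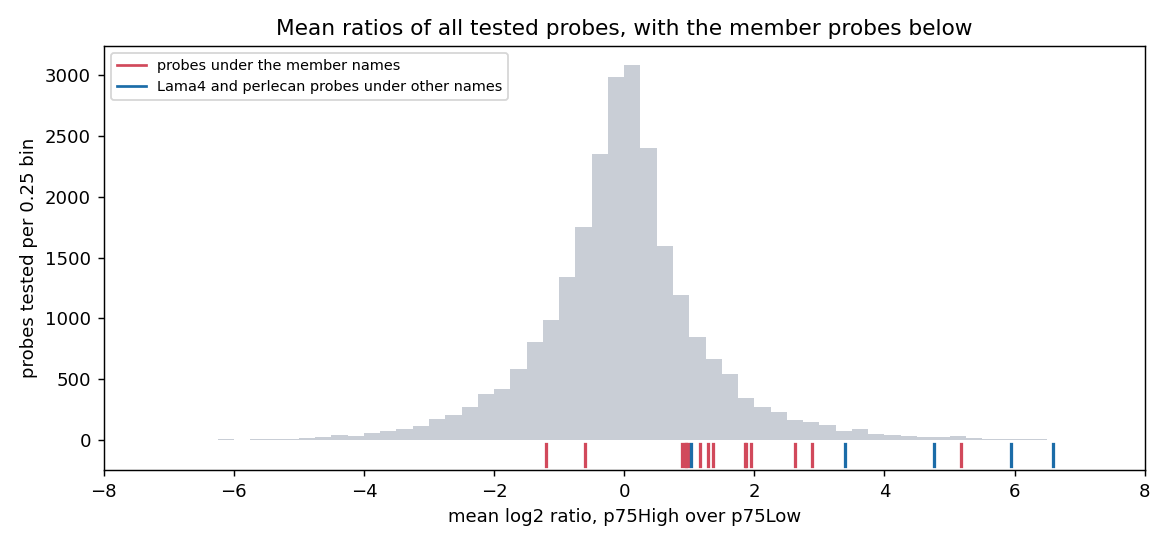
Number of tested probes (y axis) in bins of 0.25 of the mean log2 ratio of p75High over p75Low (x axis), with a tick under the histogram for each tested member probe. The median of all probes was -0.03 and that of the 15 name-matched probes was 1.29, with 2 of those 15 left of 0.

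Lama4 encodes the laminin α4 chain, which lacks the long N-terminal arm of most other α chains and is found around vessels, fat cells and peripheral nerve. Its first probe (chr20:43153367-43153426, plus strand) had intensities of 6829.4, 12465.2, 17989.8 and 31011.5 in p75High, against 177.6, 147.2, 164.1 and 130.9 in p75Low, for replicates 1 to 4. The populations did not overlap, and every p75High value was far above every p75Low value. Such separation requires a positive ratio on all 4 arrays, which 12.5% of all probes had. The ratio was positive on every array, at 5.26, 6.40, 6.78 and 7.89. Their mean was 6.58 ± 1.08, a 95.9-fold ratio with a 95% interval of 5.25 to 7.92 on the log2 scale (limma adjusted p = 0.0266). By p, the probe ranked 74 of 24837. Without any 1 of the arrays no probe of any gene passed, not even that of Ngfr, so losing the call there is not particular to Lama4. In those fits this Lama4 probe had limma adjusted p of 0.1 to 0.147 and means of 6.15 to 7.02. Its call was also lost when dim probes were kept in the fit (adjusted p = 0.0597).

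The second Lama4 probe (chr20:43228617-43231652) read 20329.0, 32045.4, 17841.2 and 22167.4 in p75High and 214.3, 278.9, 2489.5 and 119.9 in p75Low. The populations again did not overlap, and replicate 3 had the highest p75Low value. Its mean ratio was 5.95 ± 2.11, or 61.7-fold, and did not pass (adjusted p = 0.108). The third probe (chr20:43255166-43255225) read 9197.7, 64.8, 4584.4 and 20064.7 in p75High against 95.3, 63.5, 116.1 and 141.8 in p75Low. In replicate 2 this stretch was above background in neither population, while the other 3 arrays gave ratios of 5.30 to 7.15. Its mean was 4.77 ± 3.25 (adjusted p = 0.318). Of the 12 readings of Lama4, all were above 0, the lowest being 0.03 in replicate 2. With the median over its probes standing for the gene, Lama4 read 6.45 and passed (adjusted p = 0.0264), and with its brightest probe, the second, standing for the gene it read 5.95 and did not (adjusted p = 0.105).

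Lama2 encodes the α2 chain of muscle and Schwann cell basement membranes, whose loss causes a congenital muscular dystrophy in humans and mice. Its probe at base 5240 (chr1:18726141-18726200, plus strand) had intensities of 9565.8, 23845.2, 2614.1 and 1325.7 in p75High, against 95.3, 200.2, 324.1 and 73.6 in p75Low. All p75High values lay above all p75Low values. The ratios were 6.65, 6.90, 3.01 and 4.17, with a mean of 5.18 ± 1.90 (36.3-fold, interval 3.06 to 7.31), which did not pass (adjusted p = 0.12). The remaining Lama2 probes lay closer to 0 and had both signs among their arrays. At base 5927 the ratios were 1.73, 4.42, 1.76 and -0.14 (mean 1.94 ± 1.87, adjusted p = 0.423), and in replicate 4 neither population was above background there. Those at base 6698 were -0.15, 1.17, 2.21 and 0.70, for a mean of 0.98 ± 0.98 (adjusted p = 0.473). Those at base 8672 were 1.74, 3.55, -0.70 and 0.57 (mean 1.29 ± 1.81, adjusted p = 0.535). Replicate 2 gave the highest ratio at 3 of the 4 positions. With the median over its probes standing for the gene, Lama2 read 2.09 and did not pass (limma adjusted p = 0.319).

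The Lama2 probes thus differed by more than their spread for some pairs. The probe at base 8672 lay below the probe at base 5240 on each array, by -3.89 ± 0.69. That at base 6698 lay below it by -4.20 ± 2.66, with differences of -6.80, -5.73, -0.80 and -3.47. These differences between probes are descriptions and were not tested.

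Lama5 encodes the α5 chain, the most widespread α chain of adult basement membranes. Its probe at base 10864 (chr3:169234489-169234642, minus strand) had intensities of 2955.9, 4357.1, 3889.6 and 2540.6 in p75High and 530.0, 774.9, 761.9 and 278.6 in p75Low. The populations did not overlap, and the ratios of 2.48, 2.49, 2.35 and 3.19 were the least spread of any member probe. The mean was 2.63 ± 0.38 (6.18-fold, interval 1.83 to 3.43). It ranked 212 of 24837 by p and missed the threshold (adjusted p = 0.0575). It passed where only probes above background on all 4 arrays were tested (adjusted p = 0.0441). It did not pass with median centring (limma adjusted p = 0.0701) or the scanner ratios (adjusted p = 0.115). Without any 1 array, where no probe of any gene passed, its adjusted p was 0.144 to 0.237. With the median over its probes standing for the gene, Lama5 read 0.94 and did not pass (adjusted p = 0.347).

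Intensities at base 11033 (chr3:169234188-169234247) were 765.8, 472.7, 274.3 and 424.5 in p75High against 361.6, 240.8, 217.9 and 162.3 in p75Low. Its ratios of 1.08, 0.97, 0.33 and 1.39 were all above 0, with a mean of 0.94 ± 0.44 (adjusted p = 0.362). The Lama5 probe at base 8575 (chr3:169238178-169238316) went the other way on every array, with 157.5, 166.3, 213.1 and 183.7 in p75High and 397.5, 275.9, 249.8 and 202.5 in p75Low. Its ratios were -1.34, -0.73, -0.23 and -0.14 (mean -0.61 ± 0.55, adjusted p = 0.518). The sign of the Lama5 mean therefore differed between its probes. The interval at base 8575, -1.51 to 0.29, included 0, and the cause of the difference was not tested. The probe at base 10864 exceeded that at base 8575 by 3.82, 3.22, 2.58 and 3.33, a mean of 3.24 ± 0.51. The probe at base 11033 minus that at base 10864 was -1.68 ± 0.28, and was negative on each array.

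**Figure D3:**
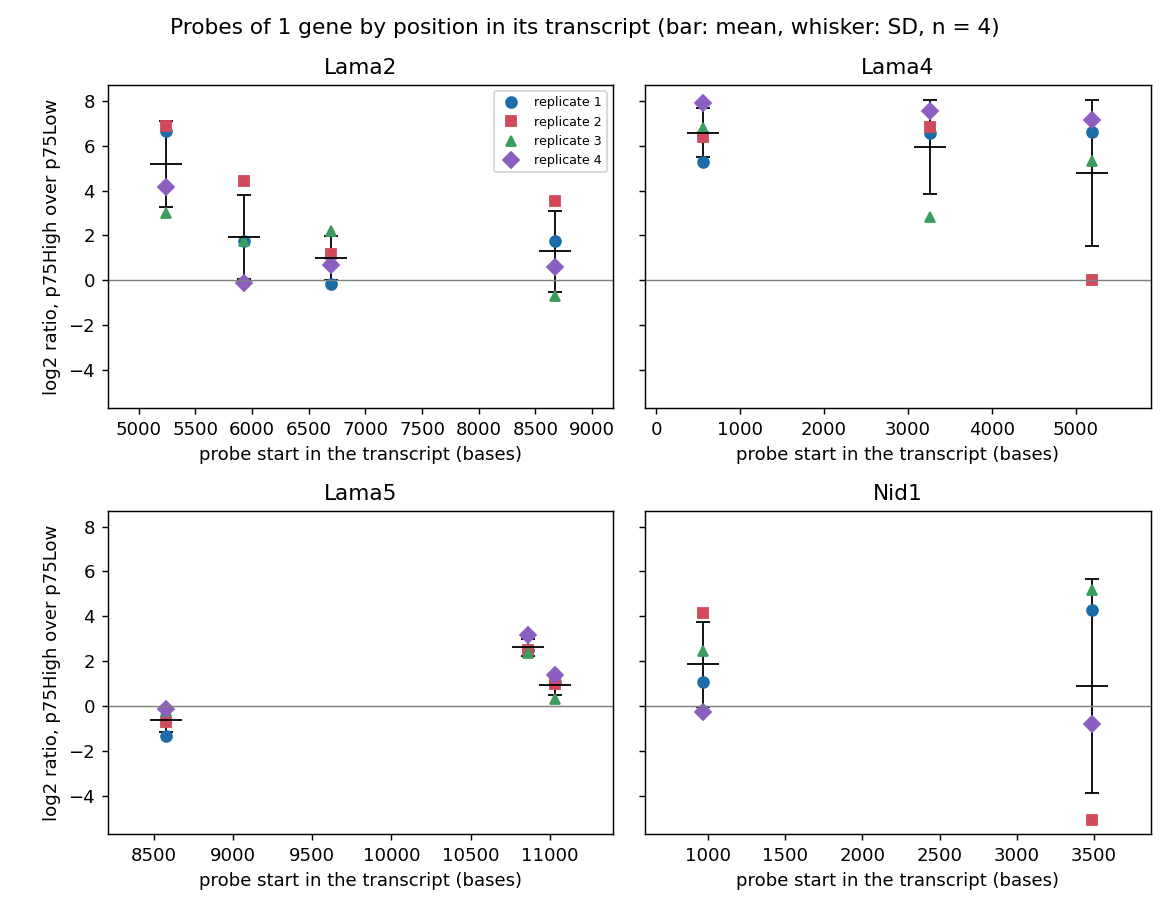
Log2 ratio of p75High over p75Low (y axis) against the start of each probe in its transcript, in bases as the array file numbers them (x axis), for Lama2, Lama4, Lama5 and Nid1. Points are arrays, horizontal bars are means and whiskers are SD (n = 4). The Nid1 probe A_44_P210385, numbered on another transcript record, is not drawn. The Lama2 mean was 5.18 at base 5240 and 0.98 to 1.94 further on, and the Lama5 means were -0.61, 2.63 and 0.94.

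Lama1, the α1 chain of early embryonic basement membranes, had 1 probe (chr9:106973476-106973535). Its intensities were 416.0, 257.7, 198.5 and 169.1 in p75High against 451.9, 251.6, 293.1 and 3060.4 in p75Low. The populations overlapped, and the p75Low value of replicate 4 stood apart. The ratios were -0.12, 0.03, -0.56 and -4.18, with a mean of -1.21 ± 2.00 (interval -3.43 to 1.02, adjusted p = 0.581) that was -0.22 without replicate 4.

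The β chains gave no call. Lamb1, the β1 chain shared by many laminins, had 1 probe (chr6:49178140-49179911) with 12205.0, 84.2, 200.1 and 106.5 in p75High against 159.0, 148.9, 231.8 and 90.2 in p75Low. A single p75High value, in replicate 1, lay far above the other 7 readings. Its ratios of 6.26, -0.82, -0.21 and 0.24 gave a mean of 1.37 ± 3.29 (interval -2.19 to 4.92, adjusted p = 0.684), and the mean without replicate 1 was -0.26. Lamb2, the β2 chain of the neuromuscular synapse and the kidney filter, had 1 probe, which the file placed on an unassembled part of chromosome 16 (chr16_random:1230338-1230397). It read 3324.9, 94.5, 2185.1 and 81.8 in p75High and 1694.8, 81.8, 199.7 and 81.2 in p75Low. The ratio stood out in replicate 3 (3.45) and was 0.01 to 0.97 on the other arrays, for a mean of 1.16 ± 1.58 (adjusted p = 0.533).

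Lamc1 encodes the γ1 chain, part of most laminins and the chain that nidogens bind. Its probe at base 4072 (chr13:68251375-68252423, minus strand) had intensities of 10085.5, 21361.9, 9784.5 and 67.6 in p75High, against 6915.2, 170.3, 587.2 and 69.7 in p75Low. On 3 arrays p75High was bright, and in replicate 4 neither population was above background. In replicate 1 both populations were bright, so the ratios of 0.54, 6.97, 4.06 and -0.04 came from unlike pairs of readings. Their mean was 2.88 ± 3.27 (interval -0.65 to 6.42, adjusted p = 0.462). The second Lamc1 probe, at base 5903 (chr13:68243126-68243185), read 107.4, 1770.1, 961.2 and 63.1 in p75High against 1926.6, 86.2, 85.8 and 60.5 in p75Low. It was above background in p75Low in replicate 1 alone, where it pointed the opposite way. Its ratios were -4.17, 4.36, 3.49 and 0.06 (mean 0.94 ± 3.87, adjusted p = 0.814).

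Nid1 encodes nidogen 1, the link between laminin and collagen IV. A pair of its probes read nearly the same stretch of chromosome 17, and 1 of them is shown with the run it shares with the other in capitals, followed by the third probe, which read a stretch farther along.
Nid1 A_43_P15947: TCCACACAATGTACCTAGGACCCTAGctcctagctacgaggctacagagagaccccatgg
Nid1 A_44_P245616: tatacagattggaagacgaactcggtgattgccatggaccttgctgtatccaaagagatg
The shared run was 26 bases long, and these probes are therefore not separate measurements of the gene. A_44_P210385 (chr17:66901133-66901190, minus strand) read 0.78, 3.92, 2.72 and 0.05, with a mean of 1.87 ± 1.78 (adjusted p = 0.421). A_43_P15947 (chr17:66901111-66901170) read 1.08, 4.15, 2.47 and -0.27, with a mean of 1.86 ± 1.89 (adjusted p = 0.44). On no array did these overlapping probes differ by more than 0.32.

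The third Nid1 probe, A_44_P245616 (chr17:66858545-66859398), had intensities of 4600.4, 149.9, 9716.0 and 130.7 in p75High, against 237.0, 4988.0, 272.9 and 227.6 in p75Low. In replicates 1 and 3 p75High was the bright population, in replicate 2 it was p75Low, and in replicate 4 both were dim. The ratios were 4.28, -5.06, 5.15 and -0.80 (mean 0.89 ± 4.76, interval -4.19 to 5.98, adjusted p = 0.858). In replicate 2 this probe lay 9.20 below A_43_P15947, the widest gap between probes of 1 member gene on 1 array. Nid2, which encodes the second nidogen, had 1 probe (chr15:4801457-4801516). It was above background on 2 arrays in p75High and on 1 in p75Low. Its readings were 100.7, 4170.2, 272.0 and 68.0 in p75High and 91.8, 84.3, 90.5 and 65.2 in p75Low. Replicate 2 alone gave a wide ratio (5.63), and the values carry no test.

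**Figure D4:**
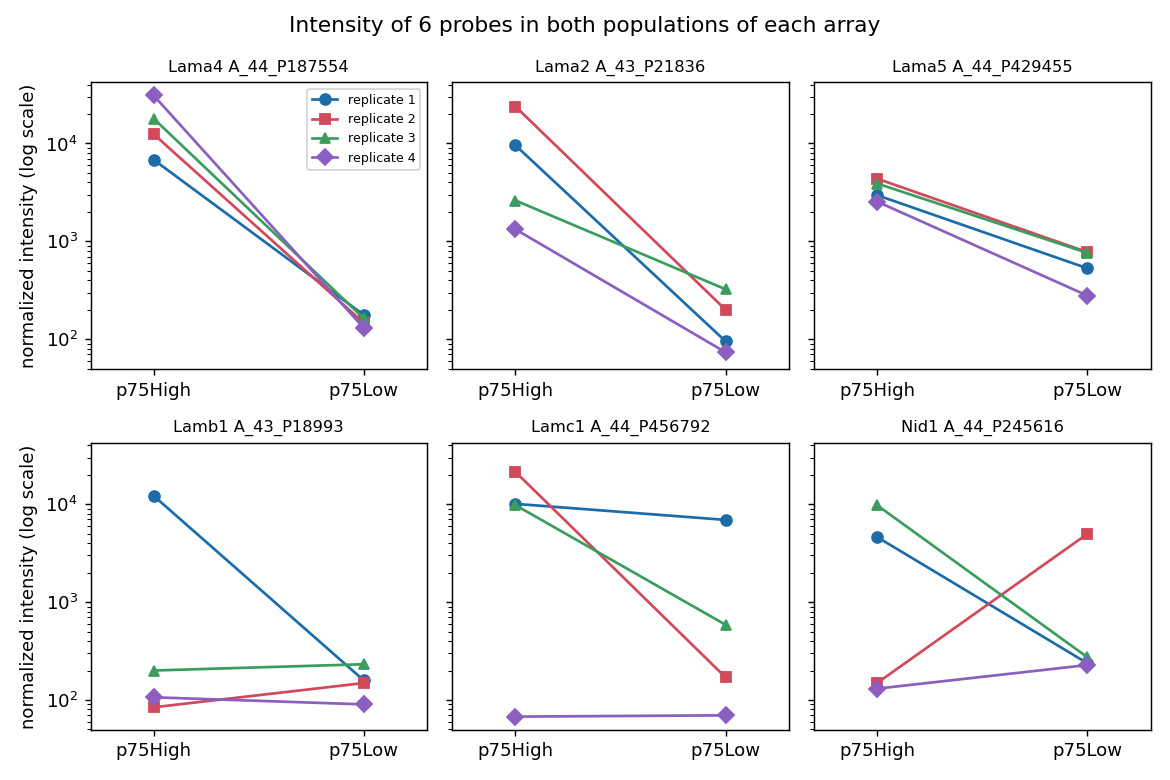
Normalized intensity (y axis, log scale) in p75High (left) and p75Low (right) of each replicate for 6 probes; lines join the channels of an array. For Lama4, Lama2 and Lama5 every line falls to the right. For Lamb1 replicate 1 alone does so clearly, for Lamc1 replicate 4 is dim in both populations, and for Nid1 replicate 2 runs the other way, with 149.9 in p75High and 4988.0 in p75Low.

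Perlecan was read by 2 probes under a transcript identifier. The first, at base 320 (chr5:156266022-156266341), had intensities of 25376.9, 19772.3, 28228.9 and 944.8 in p75High, against 1112.7, 820.9, 1702.9 and 721.1 in p75Low. On the first 3 arrays p75High was far brighter, and in replicate 4 the populations were close. The ratios were 4.51, 4.59, 4.05 and 0.39 (mean 3.39 ± 2.01, interval 1.15 to 5.62, adjusted p = 0.284). The second, at base 10530 (chr5:156326271-156326429), read 11341.7, 1250.8, 6663.0 and 232.7 in p75High and 2716.3, 525.6, 1703.5 and 523.3 in p75Low. Its ratios of 2.06, 1.25, 1.97 and -1.17 were again lowest in replicate 4, and gave 1.03 ± 1.51 (adjusted p = 0.554). It lay below the first perlecan probe on each array, by -2.36 ± 0.75.

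The arrays were unlike each other for the member probes as for the rest. The median over the 15 name-matched probes was 1.08, 2.49, 2.35 and 0.05 in replicates 1 to 4, and 11, 12, 11 and 9 of the 15 ratios were above 0. Their median SD over arrays was 1.87, from 0.38 to 4.76, against 1.18 for all tested probes. Correlations between arrays over all tested probes, which are not independent replicates, were 0.172 to 0.246. Probes of 1 gene also disagreed. Among the 6 member genes with more than 1 tested probe, Lama4 and Hspg2 included, the means of a gene's probes spanned a median of 2.15. Of these, 3 genes (50%) spanned over 2. Over all 1850 named genes with more than 1 tested probe the median was 0.96, and 21.5% spanned over 2. A span widens with the number of probes, 2 to 4 in these member genes, and this number was not matched. Probes of 1 gene had opposite signs on the same array in 12 of 24 cases (50%) for the members and in 46.8% of cases for all such genes.

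The probe with the smallest p among the 15 was the Lama5 probe at base 10864. Out of 12850 probes with a gene symbol, the nearest to its 4 ratios by Euclidean distance were Trub1, Ly6c and Chd3. Trub1, a pseudouridine synthase of RNA, lay at a distance of 0.28 with a mean ratio of 2.64. Ly6c, a surface antigen, lay at 0.61 (mean 2.33), and Chd3, a chromatin remodeller, at 0.65 (mean 2.53).

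Genes that act with the laminins were read by their brightest tested probe, among 22162 genes of which 0.668% passed the threshold, 0.275% as higher and 0.393% as lower. The median over all genes was -0.03. Lama3, the α3 chain of epithelial laminins, read 0.65 ± 0.20 and did not pass (adjusted p = 0.43). Of 14 tested components of the basement membrane other than laminins, 1 was higher and 13 did not pass (median 0.12). The higher gene was Sparc, a collagen-binding matrix protein, with 84084.5, 54406.8, 43147.6 and 27787.7 in p75High against 5827.3, 3135.9, 5072.3 and 821.5 in p75Low. The populations did not overlap, and the mean was 4.03 ± 0.82 (adjusted p = 0.0489).

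Of 11 tested genes for assembly and cross-linking, 1 was higher and 10 did not pass (median -0.13). Serpinh1, the chaperone that collagens need to fold, read 40917.5, 8924.4, 12910.1 and 43622.3 in p75High and 333.9, 229.9, 201.8 and 254.8 in p75Low. Its ratios, from 5.28 to 7.42, averaged 6.41 ± 0.96 (adjusted p = 0.0262). Of 8 tested proteases that cut basement membrane, 1 was lower and 7 did not pass (median 0.23). Ctss, a lysosomal protease that is also a macrophage marker, read 951.6, 318.2, 484.2 and 307.6 in p75High against 40596.9, 45445.6, 23694.0 and 23458.3 in p75Low, and its mean was -6.11 ± 0.79 (adjusted p = 0.0262). All 3 calls were lost without any 1 array, as was every other call among all probes. Those of Sparc (limma adjusted p = 0.0926) and Serpinh1 (adjusted p = 0.0508) were also lost when dim probes were kept. Sparc also missed the threshold with no background correction (adjusted p = 0.0502), median centring (adjusted p = 0.0782) and the scanner ratios (adjusted p = 0.0688).

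Of 16 tested laminin and basement membrane receptors, 0 passed (median 0.71). Sntb1, an adaptor of the dystrophin complex, read 1.23, 7.19, 4.62 and 6.57 (mean 4.90 ± 2.68, adjusted p = 0.244). Ddr1, a receptor kinase for collagen, read 3.69, 6.26, 0.17 and 4.15 (mean 3.57 ± 2.53, adjusted p = 0.329). Of 10 tested genes for heparan sulfate chains, such as those on perlecan, 0 passed (median 0.21). Hs2st1, a sulfotransferase, read 3.65 ± 2.30 (adjusted p = 0.304), and Xylt1, which starts the chains, read -0.53 ± 0.50 (adjusted p = 0.544).

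The sorted gene itself followed the gates. Ngfr, which encodes p75, read 9519.2, 15955.8, 11403.5 and 9928.8 in p75High against 141.4, 222.2, 351.8 and 159.4 in p75Low (5.80 ± 0.53, 55.9-fold, adjusted p = 0.0262). Without any 1 array its call was lost too (limma adjusted p = 0.1 to 0.144). Of 13 tested markers of ensheathing and Schwann glia, a list that includes Ngfr, 1 was higher, and it was Ngfr itself. The list median was 1.67, and the summed intensity, Ngfr included, was 35915 to 61752 in p75High and 5330 to 15576 in p75Low. Pou3f1 was the 1 glial marker above background in neither population, and Sox10, a transcription factor of these glia, read 4.56 ± 1.90 (adjusted p = 0.158). Of 12 tested markers of microglia and macrophages, 7 were lower, 0 were higher and 11 had a negative ratio on all 4 arrays (median -4.77). Their summed intensity was 10712 to 14574 in p75High and 248930 to 415942 in p75Low, none was below background throughout in either population, and Csf1r read -6.08 ± 0.61. The part of these differences in the laminin, nidogen and perlecan ratios was not tested. In such bulk samples, fewer cells of a type and less RNA per cell cannot be told apart.

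The marker lists of other cell types gave no call. Of 7 tested fibroblast markers 0 passed (median -0.99), with summed intensities of 62299 to 78702 in p75High and 15353 to 25891 in p75Low. Most of the p75High sum came from Col1a1, at 43857.6 to 59006.4, so it does not describe the list as a whole. Lum was never above background in p75High, nor Dcn in p75Low, while Postn read 4.80 ± 1.60 (adjusted p = 0.0991) and Col1a1 2.73 ± 1.20 (adjusted p = 0.198). The means of 4 of the 7 were below 0, at -2.71 for Col1a2, -2.42 for Col3a1, -1.63 for Fbn1 and -0.99 for Thy1, and 3 of the 7 were negative on all 4 arrays. Of 5 tested endothelial markers 0 passed (median 1.15, sums of 1530 to 2868 in p75High and 736 to 950 in p75Low), with Pecam1 and Emcn never above background in p75High, Tek at 1.73 ± 1.59 and Cldn5 at 1.23 ± 0.80. Of 6 tested smooth muscle and pericyte markers 0 passed (median 0.18, sums of 19722 to 45443 in p75High and 949 to 33163 in p75Low), with Mcam at 5.15 ± 2.27, Cspg4 at 0.89 ± 0.19, and 3 of the 6 below 0 (Cnn1 at -0.09, Des at -0.11 and Rgs5 at -0.17). Of 5 tested epithelial markers 0 passed (median 0.87, sums of 1584 to 2459 in p75High and 701 to 1499 in p75Low), with Krt14 at 1.57 ± 0.63 and Krt8 at 0.89 ± 0.94. Of 6 tested neuronal markers 0 passed (median -0.36, sums of 872 to 3713 in p75High and 794 to 2183 in p75Low), with Rbfox3 at -0.86 ± 0.37 and Syt1 at 0.68 ± 0.16. The highest p75Low sum of the smooth muscle and pericyte list, 33163, was nearly all Tagln, which read 31961.6 in replicate 2. Tagln, Col1a2, Col3a1, Fbn1, Thy1, Cnn1, Des and Rgs5 were not taken by the naming rule but picked with their values in view. The part of these cell types in the member ratios was not tested either.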

How the data were processed

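Gene expression was measured on 4 two-colour Agilent rat arrays (design 014879, read with Feature Extraction 10.5.1.1 per the file headers) on 1 slide. The deposited intensity values were mean spot and median local background brightness, not normalized, per the file headers. The deposited log10 ratios of Cy5 over Cy3 came, per the file headers, from background-subtracted and dye-normalized signals, and the value table held the same ratios (maximum difference 0). Per the labels, 250 ng of amplified cDNA went into each labelling.

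Here, background was corrected by normexp with an offset of 50 and dyes were balanced by loess with a span of 0.3 in limma 3.58.1 (R 4.3.3), with the 1639 control spots at weight 0. Of 173516 readings, 1112 outlier spots (0.64%) were dropped, and 0 were saturated. Repeat spots were averaged. Tested probes had to exceed background clearly in 1 channel on 3 or more arrays, which left 24837 of 41012. In p75High 22363 to 28016 probes per array were well above background, and in p75Low 22955 to 26133. The log2 ratio was tested against 0 (lmFit, eBayes, two-sided, Benjamini-Hochberg over all tested probes, 0.05), and the fit was tested on simulated data. The number of arrays limits precision.

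Gene symbols were brought up to date from RefSeq's GRCr8 table. Accessions named 11140 of the probes, current symbols 5117 and older symbols 3424, while 21331 kept the name in the file. The ratio is the paired difference stated by the submitters. With group means removed, the channels of an array correlated across probes at 0.13, 0.11, 0.06 and 0.23, and channels of different arrays at 0.03 at most. Both channels of an array are read from the same spots, so these correlations cannot show whether the samples were paired. Named genes were every member, Ngfr, up to 3 called genes per partner list or else the 2 with the smallest p, the 2 largest ratios per marker list, and the 3 probes nearest in pattern to the member probe of smallest p. An item that this rule took is not reported here. The members, lists and tests were chosen with earlier results of these data known. Alternatives covered background correction, centring, the scanner ratios, the filter, outlier spots, pairing, single arrays and gene-level values.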

Additional observations from a re-analysis of the deposited data

Results flagged for a closer look

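In 4 of 37 sets of array values 1 array stood apart from the other 3 by Dixon's ratio, where chance gives about 1 in 20. In replicate 4 Lama1 read -4.18, where replicates 1 to 3 read -0.56 to 0.03. For the Lama5 probe at base 10864 it was again replicate 4, with 3.19 beside 2.35 to 2.49. Lamb1 read 6.26 in replicate 1 but -0.82 to 0.24 on the remaining arrays. The perlecan probe at base 320 had 4.05 to 4.59 in replicates 1 to 3 and 0.39 in replicate 4.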

How the results depend on the processing

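Over all probes, 65 were higher and 98 lower in p75High. The counts were 112 and 165 with the scanner's own ratios, 26 and 48 with no filter on dim probes, and 165 and 171 with no replicate block (channels fitted as unpaired samples). They were 0 and 0 without any 1 of the 4 replicates in limma, where 2074 to 2647 probes had an unadjusted p under 0.05 (2 to 5 of the 15 name-matched probes, all higher). Median centring moved the median of all probes to 0.12, against -0.03. Of the 15 name-matched probes, 0 passed in the main setting, and with the stricter filter 1 of the 11 then tested. With no replicate block 2 passed, Lama2 at base 5240 (adjusted p = 0.0267) and Lama5 at base 10864 (adjusted p = 0.0106), and outside the name match the Lama4 probe at base 3259 did too (adjusted p = 0.0191). The share of higher calls was then 49.1%, against 39.9%. The median over the member probes tested was 1.12 to 1.75 in the settings run, where the stricter filter left 11 probes, dropping the filter gave 16, and the gene-level settings held 7 genes. Of the partner genes 3 passed, with no filter 1, and without any 1 replicate 0. Leaving out 1 replicate, Lamb1 ran from -0.26 (without replicate 1) to 2.10, Nid1 A_44_P245616 from -0.53 (without replicate 3, and -0.23 without replicate 1) to 2.88, and Lamc1 at base 5903 from -0.21 (without replicate 2) to 2.64. The causes were not tested, and some settings also changed the number of arrays or of probes tested. The fixed dye order, the PCR amplification and 4 arrays limit each ratio.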

Other observations

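The array file described 4 further probes as similar to nidogen 2, under locus names that the RefSeq table did not join to Nid2, and they were chosen after the file was read. LOC501230 read 2.67, -0.76, 1.71 and 7.60 in replicates 1 to 4 (mean 2.80, limma adjusted p = 0.491). LOC317070 read 5.39, 1.61, 4.09 and 0.00 (mean 2.77, adjusted p = 0.385). LOC305771 read -3.78, 0.46, 1.33 and 0.24 (mean -0.44, adjusted p = 0.86). The remaining probe was above background on no array in either population and was not tested.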
